A study of Mus musculus with 4 samples.

Results

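The nuclear genes of respiratory chain complexes I to IV were examined in 4T1 cells, a murine line of triple–negative breast cancer (TNBC), with and without the iron chelator deferasirox (DFX). Members were the protein–coding genes whose symbol begins with Nduf, Uqcr, Cox4i, Cox5, Cox6, Cox7 or Cox8, together with Sdha, Sdhb, Sdhc, Sdhd and Cyc1. The rule used names only and took 77 of the 49585 genes measured. It held 67 subunits, with 36 in complex I, 4 in complex II, 9 in complex III and 18 in complex IV. The other members were 8 assembly factors of complex I (the Ndufaf genes) and 2 relatives of complex IV, Cox7a2l and Ndufa4l2, so the name rule is slightly wider than the complexes themselves. Ndufa4 was counted with complex IV, where its protein is now placed.

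Poly(A) RNA was sequenced, and the deposited values hold 1 library for each of 4 conditions. The study describes its experiments as done in triplicate in general terms, and how this applies to the sequencing is not given in the sources used here. HM_Ctrl and HM_DFX50 came from 4T1–HM, a highly metastatic clone, and LM_Ctrl and LM_DFX50 came from 4T1–LM, a clone of low metastatic capacity. Both were grown from a single cell of the 4T1 line and carry no engineered allele by their labels. HM_DFX50 and LM_DFX50 received 50 μmol/L of DFX dissolved in DMSO, and the control cultures received DMSO alone. The time was 48 h for all 4. Each metastatic class was represented by 1 clone, so clone and class cannot be told apart, and no difference between libraries has a replicate check or a p–value.

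The respiratory chain passes electrons from NADH and succinate to oxygen across the inner mitochondrial membrane and pumps protons that drive ATP synthesis. Complex I oxidizes NADH, complex II oxidizes succinate as part of the citric acid cycle, complex III hands electrons from ubiquinone to cytochrome c, and complex IV reduces oxygen. Electrons travel through iron–sulfur clusters, hemes and copper centers, so several subunits need iron to work, and the chain is built from nuclear and mitochondrial genes together.

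Values are FPKM, which scale the fragments on a gene to its exon length and to the size of the library. A gene counted as expressed when any of the 4 libraries reached an FPKM of 1, and 70 of the 77 members passed, among 12669 genes in all. Differences are log2 ratios of FPKM + 1, which understate the change of low genes. Fragment numbers were recovered from the steps of the FPKM values, and intervals at 95% from these numbers cover counting error only. The libraries held between 14363062 and 21883854 fragments. Genes known to respond to iron chelation were higher with DFX in both clones. Tfrc, the transferrin receptor, was higher by 0.77 (HM) and 0.81 (LM), and Ndrg1, a stress–responsive suppressor of metastasis, by 1.70 and 3.62. Among 5 epithelial markers all were lower with DFX in HM and 4 in LM, and their summed FPKM was 1587 in HM_Ctrl, 530.6 in HM_DFX50, 2069 in LM_Ctrl and 1024 in LM_DFX50. Of 6 markers of blood, endothelial and muscle cells, only Cd68, a macrophage and lysosome gene, passed the filter. It was higher with DFX in both clones, with an FPKM of 12.9 and 37.4 in HM and of 12.3 and 83.1 in LM, and its part in the results was not tested, while the leukocyte gene Ptprc had 0 to 4 fragments in every library. In bulk RNA, a smaller share of cells that express a gene and less RNA per cell cannot be told apart.

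Sequences upstream of the genes are given first because many respiratory chain genes are known to be controlled through shared promoter motifs. RefSeq promoter entries (GRCm38.p6) existed for 61 of the 77 members, and the 250 bases before the gene start were searched on both strands. The motif of the activator NRF1, searched as GCGCA, any base and then GCGC, occurred in 10 of the 61 members (16.4%) and in 4.23% of the 27025 genes of the table. The table was not limited to expressed genes, so the shares given for each motif are not matched for expression. The windows below show the NRF1 match in capitals, in the direction of transcription, for the 6 members whose match lies outside the gene as deposited, in addition to Sdha, which follows in full.
Cox6a1: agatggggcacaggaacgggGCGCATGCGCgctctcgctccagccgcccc
Ndufa11: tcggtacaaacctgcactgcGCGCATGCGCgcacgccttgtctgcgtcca
Ndufaf4: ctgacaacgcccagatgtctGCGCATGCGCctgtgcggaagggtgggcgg
Ndufb4: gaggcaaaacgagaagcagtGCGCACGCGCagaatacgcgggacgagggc
Ndufs5: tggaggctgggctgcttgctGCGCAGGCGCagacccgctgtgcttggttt
Sdhd: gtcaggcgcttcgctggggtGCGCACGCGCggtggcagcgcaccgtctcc

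These windows lie at chr5:115349091-115349140 (minus strand), chr17:56717682-56717731 (plus), chr4:24897950-24897999 (plus), chr16:37654530-37654579 (minus), chr4:123718255-123718304 (minus) and chr9:50603899-50603948 (minus), in the order given. The motif of the ETS factor GABPA, CCGGAAG, was found in 10 of 61 members (16.4%) and in 7.83% of all genes. ACGTG, the core of the sites bound by hypoxia–inducible factors, whose alpha subunits are stabilized when iron is withdrawn, was found in 9 of 61 members (14.8%) and in 18.5% of all genes. Cox6a1 and Sdhd held both the NRF1 and the GABPA motif. Among expressed members the median log2 ratio with DFX in HM was −0.33 for the 10 with an NRF1 match and −0.42 for the 47 without, and in LM it was −0.18 against −0.30. For GABPA it was −0.33 with a match and −0.39 without in HM, and −0.33 against −0.21 in LM, so the order differed between clones. For ACGTG it was −0.62 for 8 members with a match and −0.34 for 49 without in HM, and −0.35 against −0.21 in LM. A match describes letters in the window and not binding.

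Sdha and Uqcr11 are shown at full length because both were lower with DFX in both clones and both carry ACGTG together with another of these motifs. Being lower in both clones was common, as it held for 47 of the 70 expressed members. Of the expressed members with an ACGTG match, Ndufa7 was higher in both clones (0.10 in HM and 0.42 in LM) and the others were lower in both. The counting intervals of Ndufa7 in HM and of Ndufa1 in LM (−0.01) held 0. Only bases upstream of the deposited gene are printed, with all matches in capitals: ACGTG and 2 NRF1 matches in Sdha (chr13:74350281-74350490, minus strand), ACGTG and CCGGAAG in Uqcr11 (chr10:80406831-80407071, minus strand).
Sdha: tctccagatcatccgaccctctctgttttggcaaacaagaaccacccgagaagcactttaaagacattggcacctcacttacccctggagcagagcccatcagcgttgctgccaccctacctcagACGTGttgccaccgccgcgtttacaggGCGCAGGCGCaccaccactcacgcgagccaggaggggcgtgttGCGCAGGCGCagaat
Uqcr11: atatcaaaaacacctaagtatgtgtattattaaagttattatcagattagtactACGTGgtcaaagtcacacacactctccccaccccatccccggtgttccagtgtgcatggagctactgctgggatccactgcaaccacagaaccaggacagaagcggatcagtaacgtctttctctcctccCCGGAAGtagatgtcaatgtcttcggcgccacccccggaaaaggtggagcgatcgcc

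Respiratory chain genes were abundant in every library. The 70 expressed members summed to an FPKM of 4213 in HM_Ctrl, 3429 in HM_DFX50, 4640 in LM_Ctrl and 4720 in LM_DFX50, which was 1.30%, 1.05%, 1.38% and 1.38% of all FPKM. Their median FPKM was 47.5, 33.7, 50.0 and 44.1 in the same order. The order of levels followed the complexes only loosely, with medians in HM_Ctrl of 36.2 in complex I, 52.9 in complex II, 65.8 in complex III and 77.2 in complex IV. The assembly factors, which help to build complex I and are not part of it, were far lower at a median of 7.63. Cox8a, a small subunit of complex IV, reached 391 in HM_Ctrl. Levels of different genes depend on the exon length used for each, which reached 6883 bases for Ndufab1 and 5628 bases for Ndufb2. Ndufb2, a general subunit of complex I, missed the filter with an FPKM of at most 0.994.

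**Figure D1:**
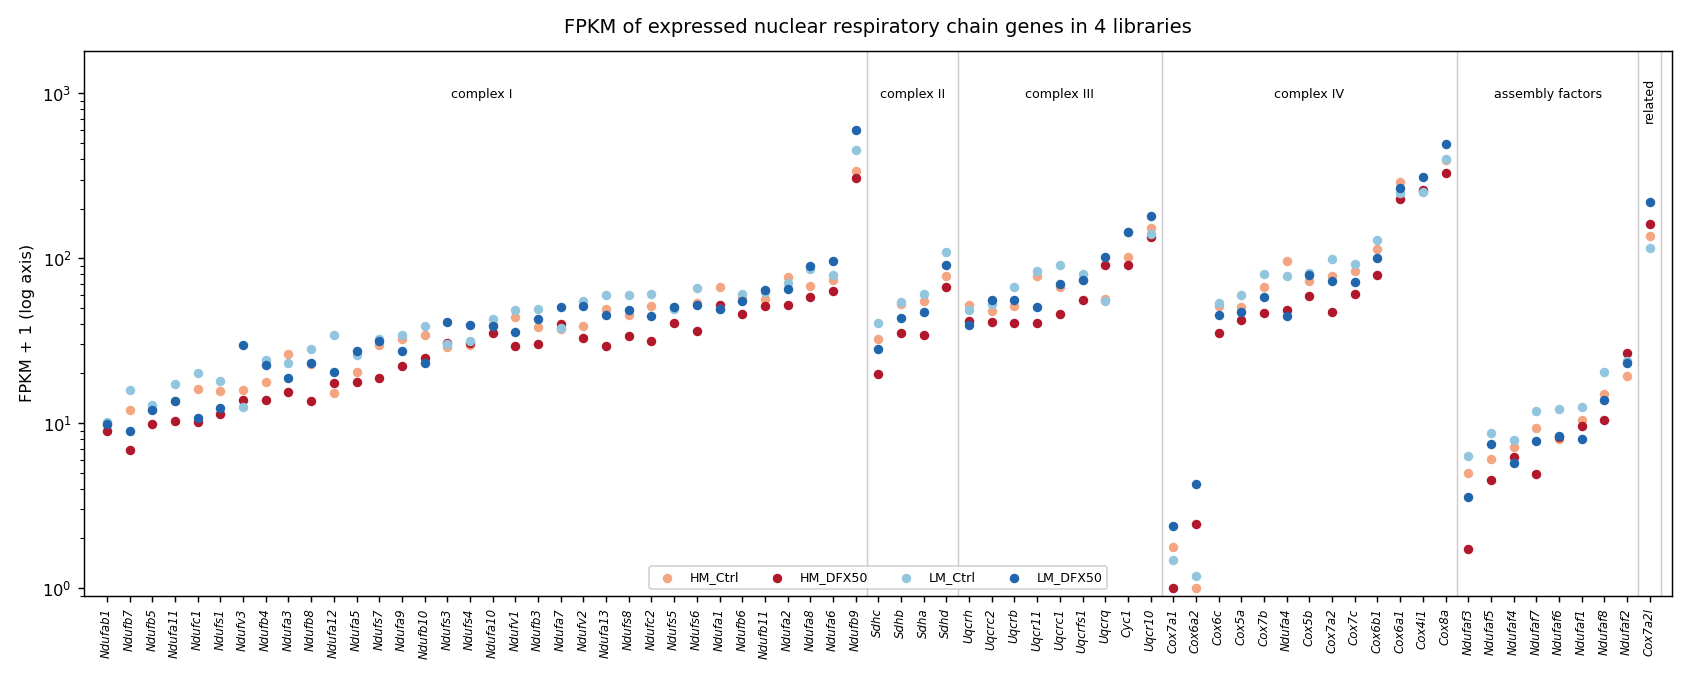
FPKM + 1 on a log axis for the expressed members but 1 that is not reported here, 1 point per library, grouped by complex and sorted by mean level. Assembly factors sit below most subunits, and only Cox7a1, Cox6a2 and Ndufaf3 come near the floor in any library.

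Isoforms known from muscle, lung or testis were nearly silent. Cox7b2, Cox8b and Cox8c were listed at 0 in every library, Cox4i2 had 2 fragments in LM_Ctrl and none elsewhere, and Cox6b2 had an FPKM of 0.126 in HM_DFX50 and 0 in the others. Ndufa4l2, a known hypoxia–responsive relative of Ndufa4, had an FPKM of 0.124 (HM_Ctrl) and 0.145 (HM_DFX50) and was listed at 0 in both LM libraries. Their ubiquitous counterparts were abundant. Cox4i1, the common isoform of subunit IV, had an FPKM of 255 in HM_Ctrl, 257 in HM_DFX50, 252 in LM_Ctrl and 309 in LM_DFX50, so it differed little between the HM libraries and was highest in LM_DFX50.

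The first comparison asks what DFX did in the highly metastatic clone. Most respiratory chain genes were modestly lower in HM_DFX50 than in HM_Ctrl. The log2 ratio was below 0 for 60 of 70 members, beside 55.9% of all expressed genes, and its median was −0.36, beside −0.10 for all genes. Without the pseudocount, the median member stood at 0.779 times its control level, over the 68 members above 0 in both libraries. Large changes were few. At 2-fold or more 1 member was lower, beside 12.4% of all genes, and 1 was higher, beside 6.93%, and at 1.5-fold or more 16 were lower, beside 26%, and 2 higher, beside 16%. Small decreases were thus common among the members. Past 2-fold 1.43% of members were lower and 1.43% higher, both below the background shares. The share at least 1.5-fold lower, 22.9%, was near the background. The counting interval lay below 0 for 56 members, above 0 for 4 and held 0 for 10. With median–ratio scaling, which brought the median of all genes to 0.00, 56 of the 70 members were below 0 and their median was −0.22. The epithelial marker sum was lower in the same pair of libraries (1587 and 530.6), and its part in these ratios was not tested.

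All 4 genes of complex II were lower in HM_DFX50, with a median of −0.63. Sdha (ENSMUSG00000021577, chromosome 13 from 74322254 to 74350280 of mm10), the FAD–binding catalytic subunit, was at 53.8 FPKM in HM_Ctrl and at 33.4 in HM_DFX50, a log2 ratio of −0.67. Sdhb, which carries the iron–sulfur clusters of the complex, had 51.9 and 34.4 (−0.58). The membrane anchors that hold the heme differed from each other, as Sdhc had 31.6 and 18.8 (−0.72) and Sdhd had 77.1 and 66.1 (−0.22).

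In complex IV the median was −0.47 and 11 of 13 members were below 0. The lowest was Ndufa4 (ENSMUSG00000029632, chromosome 6 from 11900292 to 11907497), with an FPKM of 95.7 in HM_Ctrl and 47.6 in HM_DFX50, a log2 ratio of −0.99. This is just short of 2-fold on the log2 scale of FPKM + 1, and without the pseudocount the ratio was 0.498. Cox7a2 and Cox6b1, both structural subunits, stood at −0.73 and −0.53. Of the other 2, Cox4i1 was nearly equal at 0.01, and Cox6a2, the heart and muscle form of subunit VIa, was higher at a low level. It had 0 fragments in HM_Ctrl against 14 in HM_DFX50, at least 5.44-fold higher against a floor of 3 fragments in HM_Ctrl, while the exact counting interval of the log2 ratio began at 1.95. Its ubiquitous counterpart Cox6a1 had an FPKM of 290 and 229 (−0.34). Cox7a1, the muscle form of subunit VIIa, had 7 fragments in HM_Ctrl and 0 in HM_DFX50, at least 2.00-fold lower against the same floor, with a counting interval of the log2 ratio that ended at −0.31. Cox6a2 and Cox7a1 passed the filter only through DFX libraries, and with both at these bounds the median of the members was again −0.36.

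The median was −0.37 in complex I and −0.32 in complex III. Of 35 complex I members 31 were below 0, and the highest was Ndufa12 at 0.20. The 7 core subunits, which are conserved from bacteria and carry the redox chemistry, had a median of −0.46, and the 28 accessory subunits around them had −0.33. In complex III the members ranged from Uqcr11 to Uqcrq. Uqcr11 (ENSMUSG00000020163, chromosome 10 from 80402997 to 80406830), a small structural subunit, had an FPKM of 77.5 and 39.5 (−0.95). Uqcrq (ENSMUSG00000044894, chromosome 11 from 53427922 to 53430831), another small subunit, went the other way from 55.6 to 90.2, a log2 ratio of 0.69 with an interval for the FPKM ratio without pseudocount of 0.61 to 0.79 on the log2 scale. The 2 heme and iron–sulfur proteins that carry electrons in this complex were modestly lower, with Cyc1 at −0.16 and Uqcrfs1 at −0.39. The large core proteins Uqcrc1 and Uqcrc2, which face the matrix, stood at −0.54 (FPKM 65.8 and 45.0) and −0.21 (46.5 and 40.0).

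Among the assembly factors the median was −0.32, with 6 of 8 below 0. Ndufaf3 (ENSMUSG00000070283, chromosome 9 from 108565537 to 108567434) was the 1 member past 2-fold in the lower direction on the scale of FPKM + 1, at 4.01 FPKM in HM_Ctrl and 0.729 in HM_DFX50, from 122 and 19 fragments. Its log2 ratio was −1.54, and −2.46 without the pseudocount. Ndufaf2 was the highest at 0.47, but 65.1% of its 31-mers also occur in another gene, so its value is uncertain.

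**Figure D2:**
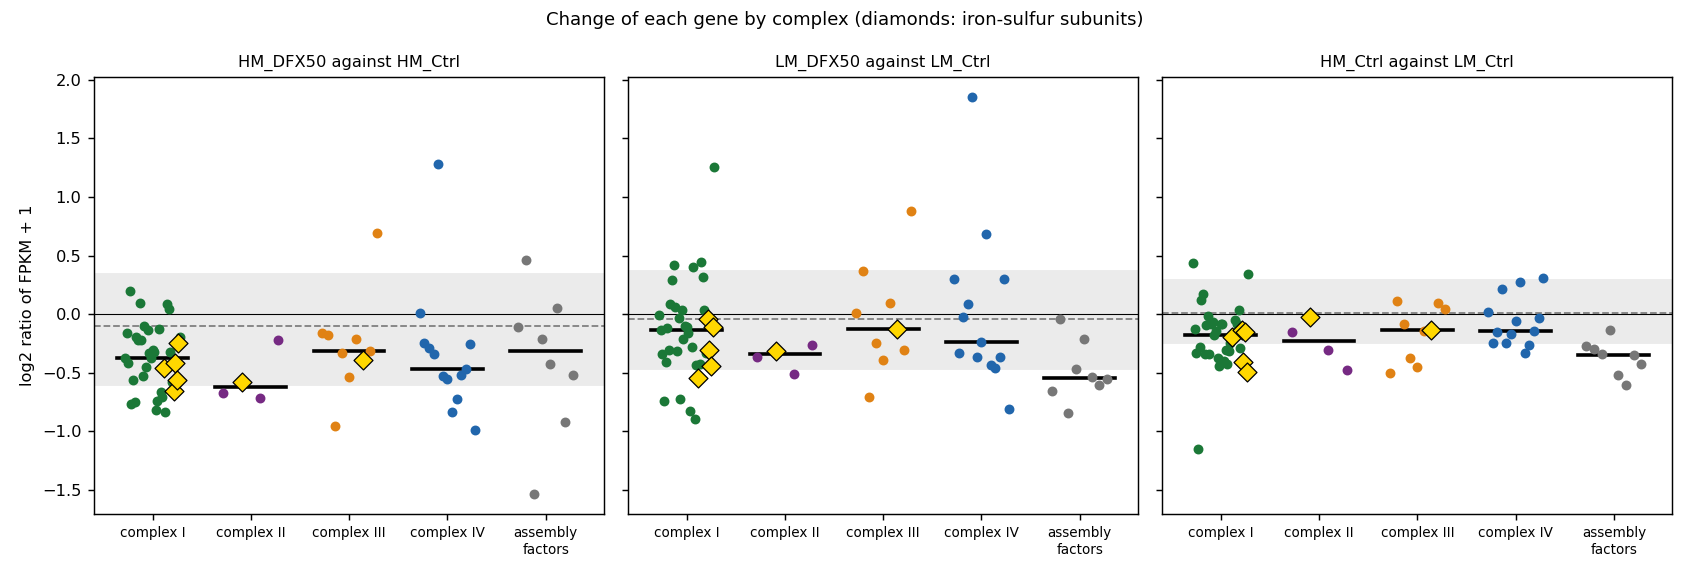
Log2 ratio of FPKM + 1 for each member by complex, for DFX in HM, DFX in LM and the untreated clones. Black bars are medians, the dashed line and grey band are the median and quartiles of all 12669 genes, and diamonds are the 7 iron–sulfur subunits. Complex medians lie between −0.63 and −0.32 in HM, and the assembly factors are the lowest group in LM at −0.54.

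The same comparison in the clone of low metastatic capacity gave smaller and more mixed values. Between LM_DFX50 and LM_Ctrl 50 of 70 members were below 0, beside 52.6% of all genes, with a median of −0.24, beside −0.04. No member was 2-fold lower, beside 8.72% of all genes, and 2 were 2-fold higher, beside 7.09%. At 1.5-fold 9 were lower (20% of all genes) and 5 higher (16.5%). The counting interval lay below 0 for 41, above 0 for 14 and held 0 for 15. The summed FPKM of the members was almost equal, 4640 and 4720, since a few abundant genes were higher, among them Ndufb9 (450 and 595), Cox8a (400 and 493) and Cox4i1. Of the exon bases of Ndufb9, 19.5% overlap another gene on the same strand. By complex, the medians were −0.14 in I, −0.34 in II, −0.12 in III and −0.23 in IV. With median–ratio scaling 45 of 70 were below 0. The epithelial marker sum was lower here too (2069 and 1024), and its part was not tested.

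Complex II was again lower as a whole, with all 4 genes below 0. Sdha had an FPKM of 60.0 and 46.4 (−0.36), Sdhb 52.9 and 42.4 (−0.31), Sdhc 39.3 and 27.3 (−0.51) and Sdhd 108 and 89.4 (−0.26). The assembly factors had the lowest median of any group, −0.54, with 8 of 8 below 0, from Ndufaf3 at −0.84 (FPKM 5.36 and 2.54) to Ndufaf2 at −0.05, whose sign turned with median–ratio scaling. In complex I Ndufc1, a small accessory subunit, was the lowest at −0.90, and in complexes III and IV Uqcr11 (82.1 and 49.8, −0.71) and Ndufa4 (77.3 and 43.6, −0.81) were the lowest again. The core subunits of complex I had a median of −0.31 and the accessory subunits −0.13. Ndufs3 was the 1 core subunit above 0 in both clones, with a log2 ratio of 0.08 in HM and 0.44 in LM, although 25.4% of its 31-mers occur in another gene. In complex IV 8 of 13 members were below 0, among them Cox7a2 (97.4 and 71.7, −0.44), Cox7b (78.9 and 57.1, −0.46) and Cox6b1 (128 and 98.8, −0.37). The most abundant subunits of this complex, Cox8a, Cox6a1 and Cox4i1, were above 0 at 0.30, 0.08 and 0.30.

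The 2 members past 2-fold upward were Ndufv3 and Cox6a2. Ndufv3 (ENSMUSG00000024038, chromosome 17 from 31520115 to 31531326), an accessory subunit of the NADH–oxidizing module, had an FPKM of 11.5 in LM_Ctrl and 28.9 in LM_DFX50, against 14.9 and 12.9 in HM. LM_DFX50 thus stood apart from the other 3 libraries, with a log2 ratio of 1.25 within LM from 452 and 1575 fragments. Cox6a2 (ENSMUSG00000030785, chromosome 7 from 128205435 to 128206387) had 2 fragments in LM_Ctrl and 49 in LM_DFX50, an FPKM of 0.187 and 3.29, with an interval of the log2 ratio without pseudocount of 2.21 to 7.22. It passed the filter only through the DFX libraries, which favors a ratio in this direction. Cox7a2l (ENSMUSG00000024248, chromosome 17 from 83501919 to 83514333), which encodes a factor that joins complexes III and IV into supercomplexes, had an FPKM of 135 in HM_Ctrl, 161 in HM_DFX50, 115 in LM_Ctrl and 218 in LM_DFX50. It was higher with DFX in both clones, by 0.26 and 0.92. Uqcrq was also higher in both, at 53.8 and 100 in LM (0.88).

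Across both clones 47 of the 70 members were lower with DFX, beside 42.4% of all genes, and 7 were higher in both, beside 33.5%. Another 13 were lower in HM and higher in LM, beside 13.2%, and 3 were higher in HM and lower in LM, beside 9.84%. In the FPKM as deposited, 7 members had opposite directions with each counting interval off 0. This was beside 8% of the 10203 genes with recovered fragments, so the share was near the background. The 7 that were higher in both were Cox4i1, Cox6a2, Cox7a2l, Ndufa7, Ndufs3, Ndufs4 and Uqcrq. The 6 members at least 1.5-fold lower in both, beside 14.1% of all genes, were Ndufa4, Uqcr11, Ndufb7, Ndufc1, Ndufaf3 and Ndufaf7. The 2 at least 1.5-fold higher in both, beside 9.17%, were Cox6a2 and Uqcrq. Cox6a2 passed the filter only through the DFX libraries, so its place among the higher members is partly set by the filter. The Pearson correlation of the HM and LM ratios was 0.683 across the 70 members and 0.721 across all genes, which are not independent replicates.

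**Figure D3:**
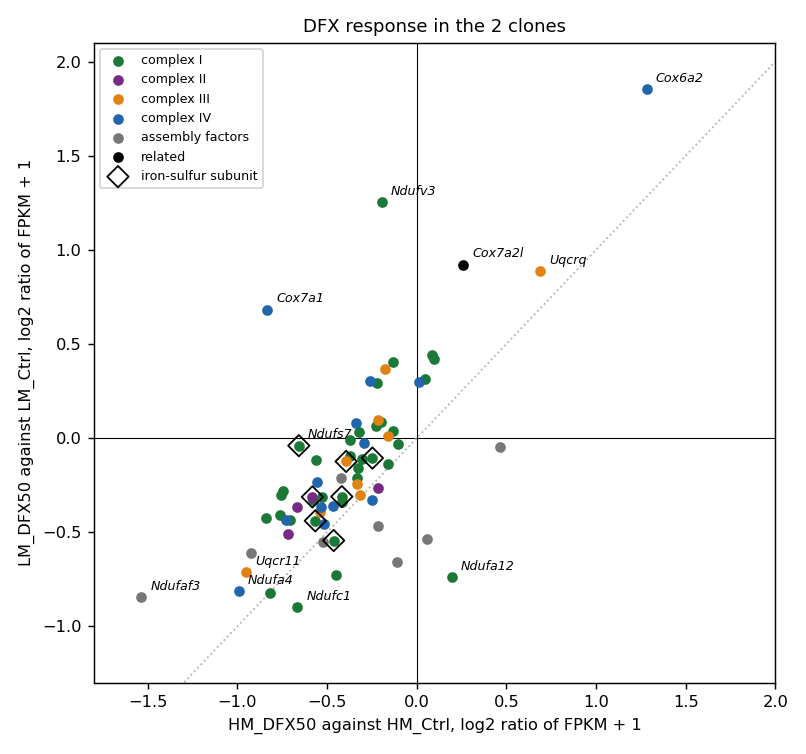
Log2 ratio of FPKM + 1 with DFX in HM (x axis) and LM (y axis) for the 70 expressed members, colored by complex, with open diamonds for iron–sulfur subunits and a dotted line of equal response. Most points lie below 0 on both axes and above the line, and Ndufv3 (−0.20 and 1.25) and Cox7a1 lie off the cloud at the upper left.

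Subtracting the LM response from the HM response showed how far the clones differed. The difference was below 0 for 58 of 70 members, beside 56.5% of all genes, with a median of −0.25, beside −0.08. By group it was −0.27 in complex I, −0.24 in II, −0.20 in III, −0.28 in IV and 0.14 in the assembly factors, where 5 of 8 were above 0. Beyond 2-fold lay Cox7a1 (−1.51, from few fragments) and Ndufv3 (−1.45), beside 5.38% of all genes, and no member in the other direction, beside 3.52%. Cox7a1 passed the filter only through LM_DFX50, so the direction of its difference is partly set by the filter. At 1.5-fold 5 were lower, beside 16.4%, and 2 higher, beside 9.77%. Ndufa12 had the highest difference, 0.94. With 1 library per condition this difference was not tested.

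The subunits that carry iron–sulfur clusters were then set against the others. They were Ndufs1, Ndufs7, Ndufs8, Ndufv1 and Ndufv2 of complex I, Sdhb of complex II and Uqcrfs1, the Rieske protein of complex III. In HM all 7 were lower with DFX, with a median of −0.46, and 47 of the 54 other expressed subunits were lower, with a median of −0.33. In LM all 7 were lower as well, with a median of −0.31, and 35 of the 54 others, with a median of −0.19. Within complex I alone the medians were −0.46 for the 5 iron–sulfur subunits and −0.33 for the 30 others in HM, and −0.31 and −0.13 in LM. The 2 sets overlapped widely, as the iron–sulfur subunits took ranks 14 to 42 from the lowest of 61 subunits in HM and 7 to 39 in LM. None was past 2-fold in either clone. The difference between the clones' responses had the opposite order, with a median of −0.14 for the iron–sulfur subunits and −0.27 for the others. Their summed FPKM in the treated library was 0.720 times that of the control in HM and 0.848 times in LM.

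Single iron–sulfur subunits did not follow the same order in both clones. Ndufs7, which holds the last cluster before ubiquinone, was the lowest of the 7 in HM with an FPKM of 28.6 and 17.8 (−0.66), but in LM it had 31.5 and 30.6 (−0.04), its counting interval held 0, and its sign turned with median–ratio scaling. Ndufs1, the large subunit with several clusters, had 14.7 and 10.4 in HM (−0.46) and 16.9 and 11.3 in LM (−0.54), the lowest there. Ndufv1, which holds the flavin and a cluster at the NADH site, had 42.7 and 28.5 (−0.57) in HM and 47.5 and 34.8 (−0.44) in LM. These 2 subunits were thus lower by similar amounts in both clones. Ndufs8 had 44.1 and 32.8 (−0.42) and 58.9 and 47.3 (−0.31). Ndufv2 had 38.0 and 31.9 (−0.25) and 53.9 and 50.0 (−0.11). Uqcrfs1 had 72.5 and 54.9 in HM and 79.6 and 72.9 in LM (−0.12).

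**Figure D4:**
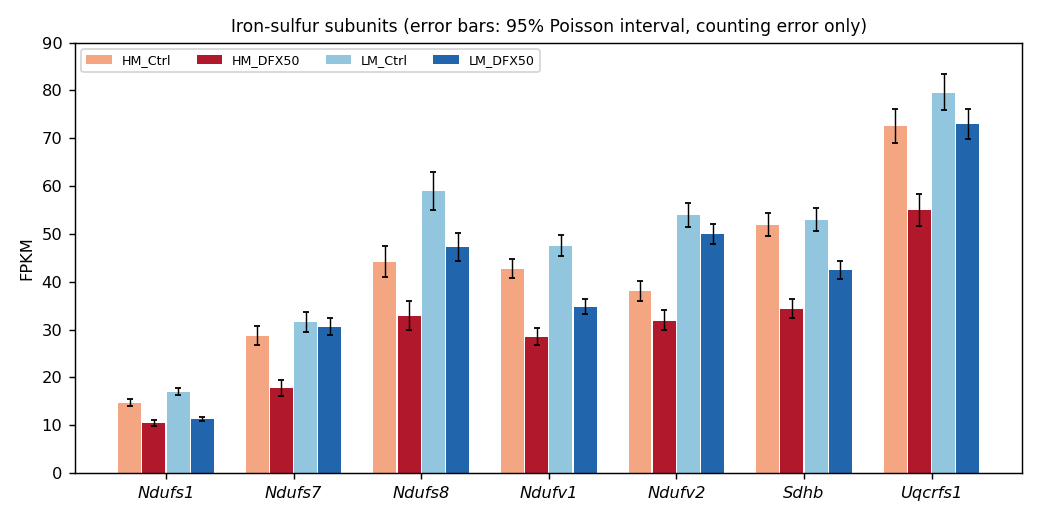
FPKM of the 7 iron–sulfur subunits in the 4 libraries, with exact Poisson intervals at 95% for counting error only. Each HM_DFX50 bar is the lowest of its gene, and the control and treated bars lie closest together for Ndufs7 in LM (31.5 and 30.6).

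The heme–binding subunits Sdhc, Sdhd and Cyc1 had a median of −0.22 in HM and −0.26 in LM. Cyc1, cytochrome c1, had an FPKM of 100 in HM_Ctrl, 89.7 in HM_DFX50, 142 in LM_Ctrl and 144 in LM_DFX50, so the LM pair was nearly equal and both HM libraries were below both LM libraries.

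The untreated clones were compared next. Respiratory chain genes were slightly lower in HM_Ctrl than in LM_Ctrl, with 57 of 70 members below 0, beside 48.2% of all genes, and a median of −0.16, beside 0.01. Only Ndufa12 was past 2-fold (3.15% of all genes were lower), none was 2-fold higher (3.65%), 2 members were at least 1.5-fold lower (8.7%) and none was 1.5-fold higher (10.5%). Ndufa12 (ENSMUSG00000020022, chromosome 10 from 94198955 to 94221443), an accessory subunit of complex I, had an FPKM of 14.3 in HM_Ctrl, 16.5 in HM_DFX50, 33.2 in LM_Ctrl and 19.5 in LM_DFX50. LM_Ctrl was high and the others were close together, with a log2 ratio of −1.16 between the untreated clones. Of its 31-mers 20.7% also occur in another gene, most in a processed pseudogene, so counting could split its reads. The medians were −0.18 in complex I, −0.23 in II, −0.13 in III, −0.14 in IV and −0.35 in the assembly factors, all 8 of which were below 0. Ndufaf6 was the lowest of them at −0.61. Iron–sulfur and other subunits had the same median, −0.15. Cyc1 (−0.50) and Sdhd (−0.48) were the lowest of complexes III and II. The counting interval lay below 0 for 42 members, above 0 for 6 and held 0 for 22. Related lists were lower to a similar degree, with a median of −0.17 for ATP synthase (14 of 14 below 0) and −0.18 for mitochondrial ribosomal proteins (60 of 77).

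Under DFX the clones lay further apart. Between HM_DFX50 and LM_DFX50 63 of 70 members were below 0, beside 54.2% of all genes, with a median of −0.40, beside −0.05. At 2-fold 3 members were lower, beside 5.05%, and none higher, beside 3.31%, and at 1.5-fold 20 were lower, beside 14.6%, and 0 higher, beside 9.95%. The 3 were Ndufv3 (−1.11), Ndufaf3 (−1.04) and Cox7a1 (−1.24, at least 3.50-fold lower against the floor of 3 fragments, with a counting interval of the log2 ratio that ended at −1.34). Cox7a1 passed the filter only through LM_DFX50, which favors a ratio in this direction. Ndufb9, with an FPKM of 306 and 595, followed at −0.96, although 19.5% of its exon bases overlap another gene on the same strand. Medians were −0.40, −0.45, −0.43 and −0.33 in complexes I to IV and −0.20 in the assembly factors, and iron–sulfur and other subunits again had the same median, −0.40. This comparison shares each library with one of the DFX comparisons above, so its values follow from them and from the untreated clones.

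Neighboring gene lists of the same pathway were read in the same way. The 14 measured genes for ATP synthase (complex V), which uses the proton gradient, had a median of −0.52 in HM, 13 of 14 below 0, and of −0.28 in LM, 14 of 14 below 0. The 13 protein–coding genes of mitochondrial DNA encode subunits of complexes I, III, IV and V. Their median was −0.71 in HM and −0.97 in LM. Of these genes 12 were below 0 in HM and 11 in LM. Their ratios were uneven, from −1.67 to 0.05 in HM and from −2.05 to 0.70 in LM. At least 1.5-fold lower were 9 of them in HM, beside 26% of all genes, and 7 in LM, beside 20%. Their summed FPKM in the treated library was 0.660 times that of the control in HM and 0.647 times in LM. Their levels covered an unusually wide range, from mt-Co1 at 5098 in HM_Ctrl to mt-Nd3 at 1.89. The log2 ratio of mt-Co1, the most abundant of them, was −0.26 in HM and −0.03 in LM. The values of mt-Nd3, mt-Nd4l and mt-Atp8 rest on at most 29 fragments in any library. The 77 expressed mitochondrial ribosomal proteins stood at −0.19 (54 of 77 below 0) and −0.14 (45 of 77), the LM value being close to those of complexes I and III. The 36 expressed assembly factors of the other kinds stood at −0.20 and −0.02. The 10 genes for electron carriers and ubiquinone synthesis had 0.03 and 0.11. Among them Cycs, cytochrome c, was higher with DFX, with an FPKM of 20.1 in HM_Ctrl, 28.9 in HM_DFX50, 25.9 in LM_Ctrl and 31.8 in LM_DFX50. The 10 expressed regulators of respiratory genes had −0.05 and −0.33, and Ppargc1a, the coactivator known to drive mitochondrial biogenesis, had 0 fragments in 3 libraries and 3 in LM_DFX50.

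**Figure D5:**
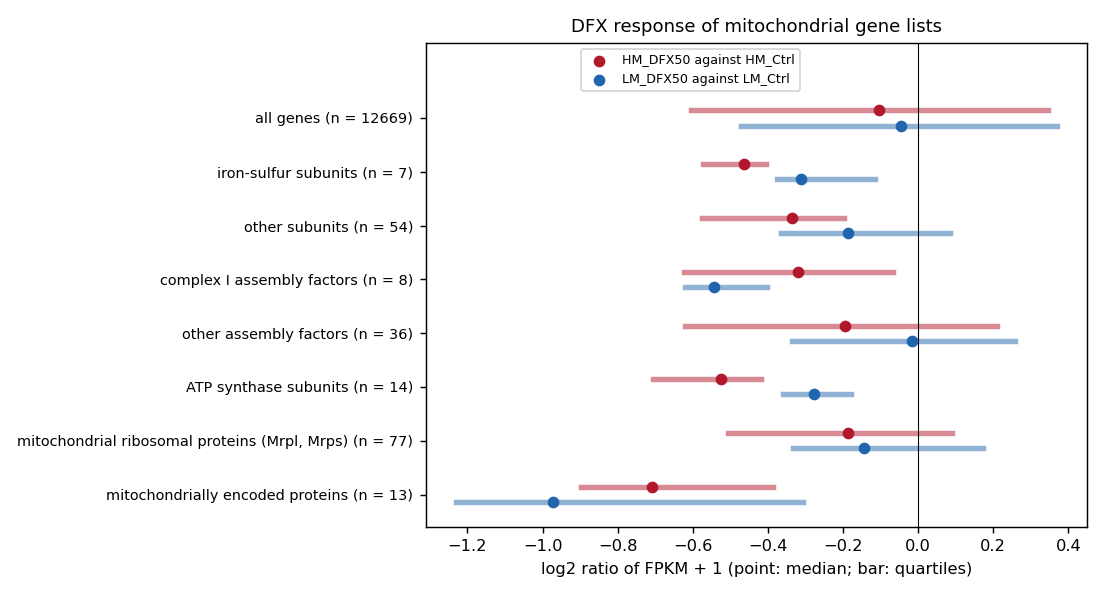
Median (point) and quartiles (bar) of the log2 ratio of FPKM + 1 with DFX in HM (red) and LM (blue) for the subunits, the assembly factors and related lists, with all genes at the top. The median was lowest for mitochondrially encoded genes in both clones (−0.71 and −0.97). Mitochondrial ribosomal proteins (−0.19 and −0.14) lie between the subunits and all genes.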

How the data were processed

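Cells of 4 conditions were sequenced as directional paired–end libraries after poly(A) selection. The study's methods also mention depletion of ribosomal RNA. The submitters' processing notes name FastQC, Trimmomatic, HISAT2 and featureCounts with build mm10. Versions and the use of strand are not given in the sources used here. The authors deposited FPKM for 49585 genes, unfiltered, in 1 column per condition. Their edgeR calls were not repeated, since FPKM are not counts and 1 library per condition gives no spread.

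The members and lists were chosen with earlier results of these data known. Ratios used FPKM + 1, a filter that kept genes reaching an FPKM of 1 in any library, and thresholds of 2-fold and 1.5-fold. Named genes were the iron–sulfur and heme–binding subunits, Sdha, isoform pairs, members past 2-fold, and the extremes of each complex. The values of 1 such gene are not reported here. Other members named (among them Ndufb9, Ndufb7, Ndufa6, Ndufaf7, Ndufa7, Ndufs3, Ndufs4 and Uqcrc2) were chosen after their values were seen.

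Fragments were recovered with exon lengths of GENCODE M21, whose coordinates equal those of 45125 genes and 58 members. Values of 96.8% of 18235 such genes were whole within 0.02, and for 19 members the length was solved from their own FPKM. The recovered depth was 16745605 fragments in HM_Ctrl, 14363062 in HM_DFX50, 15731517 in LM_Ctrl and 21883854 in LM_DFX50. Over 20% of 31-mers were shared with another gene for 9 members (Cox7c, Ndufa12, Ndufa13, Ndufaf2, Ndufb11, Ndufb6, Ndufs3, Ndufs5 and Uqcrb). Intervals were exact at 95%. The 2-fold calls were run on counts simulated from HM_Ctrl, with 200 well expressed genes changed 3-fold. All 200 were called in the right direction, and 58 of 10003 unchanged genes were called. The simulation held counting error only, so it cannot tell how the calls fare with variation between cultures. Alternatives were a pseudocount of 0.1, other filters, median–ratio and 75th percentile scaling, subunits only and members without shared sequence. Python used numpy 2.4.6, pandas 2.3.3 and scipy 1.17.1.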

Additional observations from a re-analysis of the deposited data

Results flagged for a closer look

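For 7 members the 2 clones moved in opposite directions under DFX, each beyond its counting interval, beside 8% of the 10203 genes with recovered fragments. With 1 library per condition the difference was not tested. The HM log2 ratio minus that of LM was −1.45 for Ndufv3 (−0.20 in HM and 1.25 in LM), −0.56 for Cox8a (−0.26 and 0.30), −0.54 for Uqcr10 (−0.18 and 0.37), −0.54 for Ndufb9 (−0.13 and 0.40), −0.52 for Ndufa6 (−0.22 and 0.29), −0.42 for Cox6a1 (−0.34 and 0.08) and −0.31 for Uqcrc2 (−0.21 and 0.09). Each was lower in HM and higher in LM. Ndufb9 overlaps another gene on the same strand in 19.5% of its exon bases. With median–ratio scaling, which moves the HM ratios up, the HM value of Ndufb9 was above 0. The counting intervals were not recomputed under this scaling. In HM they ended near 0 for Ndufv3 (−0.03), Ndufa6 (−0.06), Uqcr10 (−0.07) and Uqcrc2 (−0.12). For Cox8a and Cox6a1 they ended at −0.19 and −0.26. The opposite directions beyond the counting interval thus hold for the FPKM as deposited.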

How the results depend on the processing

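No paired analysis was possible because each group held 1 library. Under the alternatives run no summary median changed sign. Of the summary values 316 stayed within the limits set and 24 did not. Of the values of single genes 818 stayed within them and 26 did not, and single members turned sign as given below. With a pseudocount of 0.1, 4 members were 2-fold lower in HM and 1 in LM with DFX, and 2 between the untreated clones. Median–ratio scaling moved the median of all genes in HM from −0.10 to 0.00, gave HM medians of −0.22 for the members and −0.20 for the subunits without iron–sulfur clusters, a median difference between clones of −0.16, and 1 member with a difference past 2-fold upward. It turned the sign of 4 members in HM (56 of 70 stayed below 0) and 5 in LM (45 of 70). With 75th percentile scaling the untreated clones had a median of −0.13, and 3 members turned sign (Cox8a, Ndufa7 and Sdhb), with 54 of 70 below 0. Between the clones under DFX, Ndufaf6 turned sign with either scaling. The 1.5-fold threshold gave 16 lower and 2 higher in HM, 9 and 5 in LM, 2 lower between untreated clones, 20 lower under DFX, and 5 lower and 2 higher for the difference. With subunits only, 0 were 2-fold lower in HM. Without members of shared sequence, 0 were lower between untreated clones. A mean FPKM of at least 1 left 1 member for the difference. An FPKM of at least 10, chosen after seeing the data, left 0 lower and 0 higher in HM, 1 higher in LM, 1 lower between clones under DFX and 1 for the difference. Where not plain from the construction, the cause was not tested. Counting error limits Cox6a2, Cox7a1 and Ndufaf3 most, and variation between cultures is unknown for every value.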
